A study of Mus musculus with 8 samples.

Results

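The high mobility group (HMG) proteins are small, abundant non-histone proteins of chromatin. The genes followed here were Hmga1 and Hmga2 of the HMGA family, Hmgb1, Hmgb2 and Hmgb3 of the HMGB family, and Hmgn1, Hmgn2, Hmgn3 and Hmgn5 of the HMGN family. Their probes were chosen by gene symbol. Of the 9 genes, 7 had a named probe, with 12 of the 24613 probes of the array between them. Of these probes, 11 carried the symbol in the platform annotation, and the single Hmga1 probe was named through its transcript accession. Signals were high enough for 6 genes, with 7 probes, to be tested among 10377 genes, where a probe without a gene name counts as a gene. No probe was named as Hmgb2 or Hmgn2, which are not analysed here, and the Hmgb3 probe was not above background on any array.

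Gene expression was measured on 1-colour Illumina mouse bead arrays, with 4 arrays of astrocytes and 4 of NS5 cells. The astrocytes were NS5 cells held for 3 days in medium without growth factors but with 5% FCS (fetal calf serum), per the labels. NS5 cells, a line of mouse neural stem cells, were grown in their usual medium with growth factors, so all 8 samples come from 1 cell line and the groups differ in medium and serum as well as in cell type. The labels call the 4 samples of each group biological replicates, and the p-values measure the spread between them.

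HMG proteins bind DNA or nucleosomes with little regard for sequence and change how tightly chromatin is folded, in part by competing with linker histone H1. HMGA proteins hold the minor groove of AT-rich DNA with short AT-hooks, HMGB proteins bend DNA with a pair of HMG boxes and carry an acidic tail, and HMGN proteins sit on the nucleosome core. In the mouse brain Hmga2 is known for keeping young neural stem cells dividing, and HMGN proteins have been linked to the making of astrocytes from precursors.

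The labels were checked against marker genes. Of 6 tested astrocyte markers, 4 were called higher and 0 lower. Gfap, the intermediate filament gene of astrocytes, was above background on all 4 astrocyte arrays and on 0 of the 4 NS5 arrays, at least 16.7-fold higher, and the water channel Aqp4 was at least 36.6-fold higher. The glutamate transporter Slc1a3 had a log2 fold change of 1.18, the progenitor filament Nes -0.63, and the stem cell factor Sox2 0.70, or 0.47 on its other probe. The astrocyte markers S100b, at 0.35 (adjusted p = 0.135 with limma), and Glul, at -0.11 (adjusted p = 0.573), were not called, and of 6 tested neural stem cell markers 3 were lower and 2 higher. For microglia and macrophages, 0 of 4 measured markers exceeded background on any array, with summed signals of 22.2 to 40.0 in astrocytes and 9.20 to 45.7 in NS5 cells. Neuron markers had summed signals of 921 to 1418 in astrocytes and 1043 to 1123 in NS5 cells, with 5 of 6 above background on at least 1 array of each group and Dcx on none. Those sums hold changes both ways, with Map2 (-0.96) and Syp (-0.21) called lower and Gad1 (0.61) called higher. Map2 had -0.78 on a further probe, but the rise of Gad1 rests on 1 probe. Its groups overlapped there, with astrocyte array 1 at 953 and the other astrocyte arrays at 402 to 485. The other Gad1 probe, above background on all 4 arrays of each group, had 0.07 (adjusted p = 0.592 with limma on single probes). Oligodendrocyte markers moved with the groups, and the 5 reported here (Cnp, Mag, Mbp, Mog and Sox10) had summed signals of 368 to 622 in astrocytes and 199.99 to 304 in NS5 cells. Of these 5, 3 were above background on at least 1 astrocyte array and 2 on at least 1 NS5 array, Cnp and Mbp were called higher, and Mog and Sox10 were not above background on any array. The part of such cells in the values of the HMG genes was not tested.

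In astrocytes Hmgb1, Hmgn1 and Hmgn5 were lower than in NS5 cells, while Hmga1, Hmga2 and Hmgn3 did not pass the test, and no HMG gene was called higher. By family, 1 of 1 tested HMGB gene, 2 of 3 HMGN genes and 0 of 2 HMGA genes were called lower. Lower calls were common in these cells, at 30.0% of all 10377 genes, and 29.2% were called higher, and the count of 3 in 6 is to be read against those shares. The 6 genes had a median log2 fold change of -0.41, against -0.02 over all genes. A call is a Benjamini-Hochberg adjusted p under 0.05 in limma's moderated test over all genes. Each fold change gives astrocytes over NS5 cells as a difference of log2(signal + 99.01), where the added constant keeps values positive and understates the change of dim genes. In bulk RNA, fewer cells with a transcript and less of it per cell cannot be told apart.

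**Figure D1:**
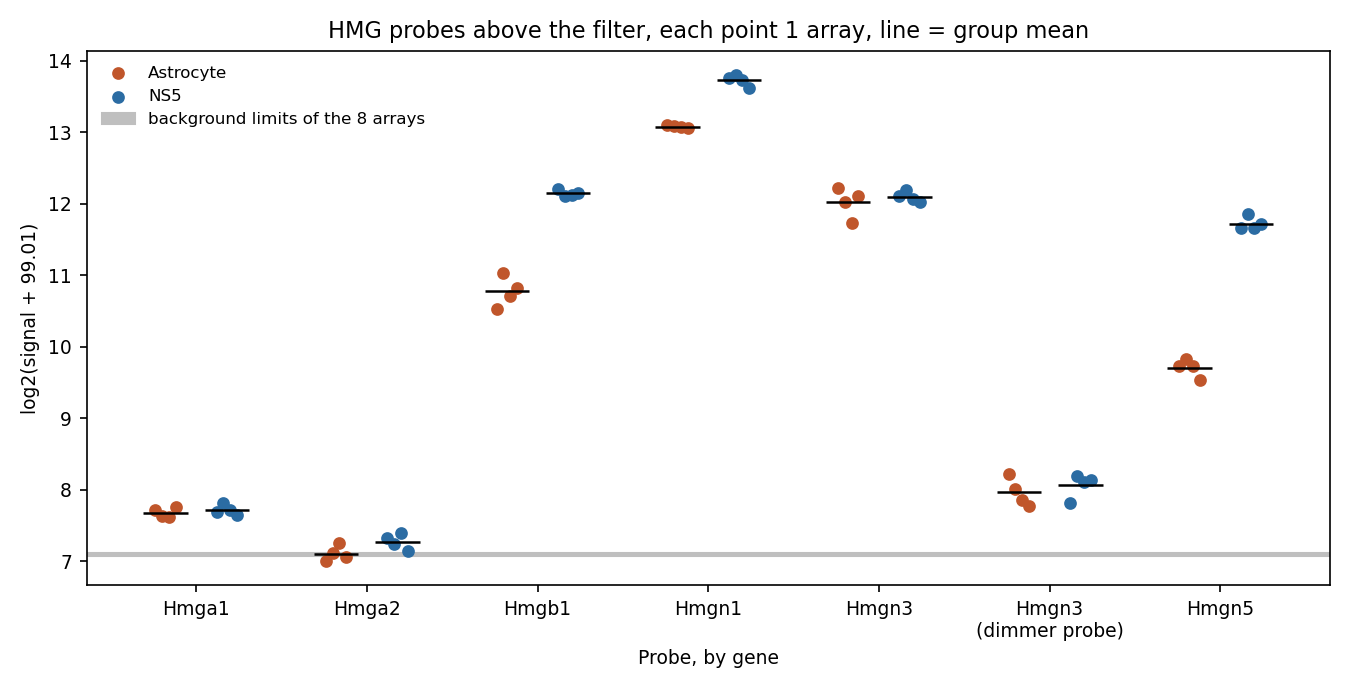
Normalized log2(signal + 99.01) of the 7 HMG probes that were tested, with 1 point per array, astrocytes left and NS5 cells right in each pair, group means as lines, and the background limits of the 8 arrays as a grey band. The astrocyte points lie below all NS5 points for Hmgb1, Hmgn1 and Hmgn5 and overlap with them for the other 4 probes. Heights of different probes are not comparable.

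Hmgn5, an HMGN protein with a long acidic tail that opposes the packing of chromatin by linker histone, had the lowest fold change of the members (probe ILMN_2740445). Its signals, in normalized scanner units with background removed, were 746, 808, 749 and 645 in astrocytes, against 3135, 3611, 3135 and 3253 in NS5 cells. All 4 astrocyte arrays were low and the groups lay far apart. The mean was 737 ± 67.7 in astrocytes and 3284 ± 225 in NS5 cells (SD, n = 4 each), and the log2 fold change was -2.02 ± 0.08 (SE, adjusted p = 5.80e-10 with limma), or 4.05-fold lower on that scale. Of all 10377 genes, 218 (2.10%) had a lower fold change than Hmgn5.

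Hmgb1, a DNA-bending protein of the nucleus that also acts as an alarm signal when it leaves the cell, was lower as well (probe ILMN_1245504). Its signals were 1373, 1996, 1572 and 1712 in astrocytes, against 4606, 4293, 4360 and 4435 in NS5 cells. The groups did not overlap, and the astrocyte arrays were the more spread, with array 2 highest and array 1 lowest. The mean was 1663 ± 262 in astrocytes and 4424 ± 135 in NS5 cells (SD, n = 4 each), and the log2 fold change was -1.37 ± 0.10 (SE, adjusted p = 1.10e-07 with limma), or 2.59-fold lower. The other Hmgb1 probe, ILMN_1242911, was not above background on any array, with signals of -23.4 to -12.9 in astrocytes and -18.4 to 1.27 in NS5 cells, so that the change of Hmgb1 rests on 1 probe.

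Hmgn1, which loosens chromatin and is found at active enhancers, changed less (probe ILMN_2741132). Its signals were 8644, 8628, 8547 and 8397 in astrocytes, against 13715, 14158, 13448 and 12441 in NS5 cells. The 4 astrocyte arrays were nearly level, and every one was below the lowest NS5 array. The mean was 8554 ± 113 in astrocytes and 13440.5 ± 728 in NS5 cells (SD, n = 4 each), and the log2 fold change was -0.64 ± 0.07 (SE, adjusted p = 3.96e-06 with limma), or 1.56-fold lower. In all, 3 of the 6 tested genes had groups that did not overlap, each with the astrocytes below, as had 28.0% of all genes.

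The promoter windows of the 3 genes that fell are shown because these genes fell in the same arrays, with that of Hmga2 for contrast. Each runs from 250 bases before to 50 bases after a transcription start and is taken from RefSeq on mouse build GRCm38.p6, on the gene's own strand, which is the minus strand for all 4. Of the 9 members, 8 had a window in that table, and the one without was Hmgn3, so that Hmga1 and Hmga2 are the only tested genes without a call whose windows can be set beside those that fell. Capitals mark CCAAT, the box bound by the factor NF-Y, on either strand (ATTGG is its reverse complement).
Hmgn5, chrX:109013331-109013630: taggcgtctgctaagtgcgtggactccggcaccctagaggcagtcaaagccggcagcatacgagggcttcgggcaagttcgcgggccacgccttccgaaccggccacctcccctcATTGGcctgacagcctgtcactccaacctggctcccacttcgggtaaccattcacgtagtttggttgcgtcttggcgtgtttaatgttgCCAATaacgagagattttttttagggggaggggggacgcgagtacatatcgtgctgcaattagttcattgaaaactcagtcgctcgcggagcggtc
Hmgb1, chr5:149053008-149053307: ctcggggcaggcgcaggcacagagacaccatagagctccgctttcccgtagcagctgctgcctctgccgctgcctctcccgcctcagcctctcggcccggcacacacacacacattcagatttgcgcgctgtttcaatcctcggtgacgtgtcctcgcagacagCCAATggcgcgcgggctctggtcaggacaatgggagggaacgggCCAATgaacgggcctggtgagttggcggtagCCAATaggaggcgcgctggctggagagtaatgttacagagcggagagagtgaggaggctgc
Hmgn1, chr16:96127676-96127975: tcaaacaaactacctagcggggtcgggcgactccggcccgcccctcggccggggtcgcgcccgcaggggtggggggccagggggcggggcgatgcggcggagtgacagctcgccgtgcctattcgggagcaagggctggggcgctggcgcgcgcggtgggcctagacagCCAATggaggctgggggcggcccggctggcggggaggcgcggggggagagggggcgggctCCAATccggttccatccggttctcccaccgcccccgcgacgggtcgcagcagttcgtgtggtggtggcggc
Hmga2, chr10:120476420-120476719: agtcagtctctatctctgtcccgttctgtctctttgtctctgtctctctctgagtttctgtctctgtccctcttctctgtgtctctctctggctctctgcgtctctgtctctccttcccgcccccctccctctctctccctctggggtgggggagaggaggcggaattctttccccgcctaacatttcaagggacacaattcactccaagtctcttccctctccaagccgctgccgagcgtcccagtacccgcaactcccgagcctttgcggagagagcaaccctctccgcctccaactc

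The windows of Hmgn5 and Hmgn1 hold 2 CCAAT boxes each and that of Hmgb1 holds 3, beginning 86, 42 and 11 bases before the start. In Hmgn5 the boxes begin 135 and 46 bases before the start, the farther one on the opposite strand, and in Hmgn1 81 and 21 bases before it. The window of Hmga2 and both windows of Hmga1 hold no CCAAT, nor does a further window of Hmgb1 at a start inside the gene. Both Hmga1 windows overlap over most of their length and are not separate observations. Of 32851 windows in the table, 37.4% hold at least 1 CCAAT, 11.7% at least 2 and 3.37% at least 3. The windows of Hmgb2, with 4 boxes, Hmgb3, with 3, and Hmgn2, with 1, belong to genes with no tested value here. The other motifs were searched on both strands, and no match of one motif overlapped another. TATAAA (13.6% of all windows) and TTTNNCGC, a form of the E2F site (5.17%), occur in no HMG window. GGGCGG, the GC box (35.7%), occurs 5 times in Hmgn1, 4 times in either window of Hmga1, 1 time in Hmga2 and not in Hmgn5 or the printed Hmgb1 window, and TTTGAA (17.9%) occurs in Hmgb2 and Hmgb3 only. The motifs were chosen with the results known, and a match describes these letters alone.

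Hmgn3, which favours the expression of metabolic genes in other mouse cells, was measured by 2 probes annotated to different transcripts, and neither changed past the test. The brighter probe, ILMN_2644719, gave 4670, 4060, 3302 and 4330 in astrocytes, against 4296, 4581, 4191 and 4064 in NS5 cells. The groups overlapped on it, with the highest and the lowest array both from astrocytes. Its mean was 4090 ± 582 in astrocytes and 4283 ± 220 in NS5 cells (SD, n = 4 each), at a log2 fold change of -0.07, a 95% interval of -0.29 to 0.15 and an adjusted p = 0.570 with limma. The dimmer probe, ILMN_1234566, gave 197, 159, 133 and 120 in astrocytes, against 126, 193, 177 and 181 in NS5 cells, also overlapping, and the log2 fold change was -0.10 ± 0.11 (SE, adjusted p = 0.493 with limma over 12306 probes). When each probe was tested by itself, 3 of the 7 HMG probes were called lower, against 30.6% of all probes.

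Hmga1, the HMGA gene used widely by dividing cells, was dim but above background on all 8 arrays (probe ILMN_2715802). Its signals were 111, 98.7, 96.4 and 117 in astrocytes, against 106, 127, 112 and 101 in NS5 cells. The groups overlapped throughout. The log2 fold change was -0.04, with a 95% interval of -0.20 to 0.12 and an adjusted p = 0.693 with limma.

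Hmga2 was at the edge of detection. Its brightest probe, ILMN_2743802, gave 29.0, 39.2, 53.2 and 33.7 in astrocytes, against 60.4, 52.6, 68.4 and 41.5 in NS5 cells, where the background limits were 35.4 to 39.8. It exceeded background on 2 of the 4 astrocyte arrays and on all 4 NS5 arrays, and astrocyte array 3 reached into the NS5 range. The log2 fold change was -0.17, with a 95% interval of -0.35 to 0.01 and an adjusted p = 0.105 with limma. Without astrocyte array 3 it was called, at -0.22 (adjusted p = 0.0478), the lowest of 18 alternatives whose highest was 0.250. On scales with a smaller constant its fold change was larger and still not called, at -0.39 with a constant of 16 and -0.54 in the authors' value table. The other 3 Hmga2 probes were not above background on any array. Of the 4 probes, 2 carry an accession that RefSeq lists for Hmga2, and the brightest is not among them, so that its name rests on the platform annotation.

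Hmgb3, the HMGB gene known from stem and progenitor cells of the blood, gave signals of -7.09, -14.2, -0.81 and -6.46 in astrocytes, against 2.62, -9.83, 6.24 and -28.6 in NS5 cells. No array was above background, so no level or change is given for it.

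**Figure D2:**
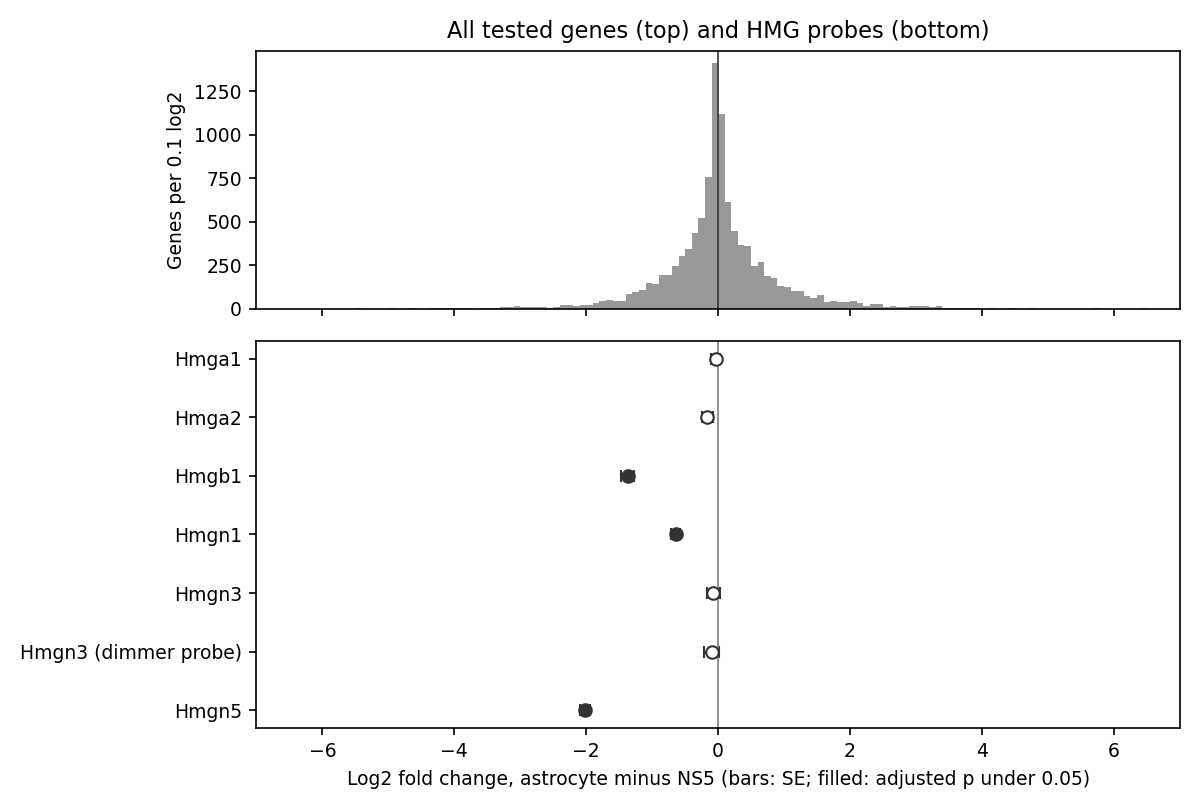
Log2 fold change, astrocyte minus NS5, of the 10377 tested genes as counts per bin of 0.1 (top) and of the 7 tested HMG probes with their SE (bottom; filled points have an adjusted p under 0.05). Hmgn5 at -2.02, Hmgb1 at -1.37 and Hmgn1 at -0.64 lie left of the peak of all genes, and the other probes lie within 0.17 of 0.

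To test whether genes of 1 family changed unequally, the difference of 2 log2 signals was taken within each array and compared between the groups by an exact two-sided permutation test over the 8 arrays, whose smallest p is 0.0286. Of 10 pairs within families, 4 had both genes tested, and 3 of these differed. Hmgn5 minus Hmgn1 was -3.37, -3.27, -3.35 and -3.51 in astrocytes, against -2.09, -1.94, -2.07 and -1.90 in NS5 cells, so that Hmgn5 changed by -1.37 ± 0.07 (SE) more than Hmgn1 (exact p = 0.0286, adjusted p = 0.0381 over 4 pairs). Hmgn5 minus Hmgn3 differed by -1.94 ± 0.14, and Hmgn3 minus Hmgn1 by 0.57 ± 0.11, both with the same exact p and adjusted p. All 3 HMGN pairs thus differed beyond the spread between arrays. Hmga2 minus Hmga1 differed by -0.13 ± 0.10 and did not pass (exact p = 0.286), with overlapping groups. This difference was larger with a constant of 16, at -0.33, and in the authors' value table, at -0.46, and passed in neither.

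Pairs of genes from different families were compared in the same way, a choice made after the data were seen. Of 11 such pairs, 9 differed (each at the smallest exact p, adjusted p = 0.0349 over 11 pairs). Hmgn5 fell more than Hmgb1, by -0.65 ± 0.13 (SE), and Hmgb1 more than Hmgn1, where Hmgn1 minus Hmgb1 was 0.73 ± 0.12. Relative to Hmga1, Hmgn5 changed by -1.98 ± 0.09, Hmgb1 by -1.33 ± 0.13 and Hmgn1 by -0.61 ± 0.05. The 2 pairs that did not pass were Hmgn3 with Hmga1, at -0.04 ± 0.08 (exact p = 0.771), and Hmgn3 with Hmga2, at 0.09 ± 0.17 (exact p = 0.629). Pairs between families were not recomputed under the alternatives. That of Hmgn1 with Hmga2, at -0.48 ± 0.07, holds a gene whose change the added constant understates. With a constant of 16 the log2 fold changes were -0.65 for Hmgn1 and -0.39 for Hmga2. In the authors' value table they were -0.65 and -0.54, so the size of this difference depends on the scale. The 15 pairs share genes and arrays and are not independent of each other.

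**Figure D3:**
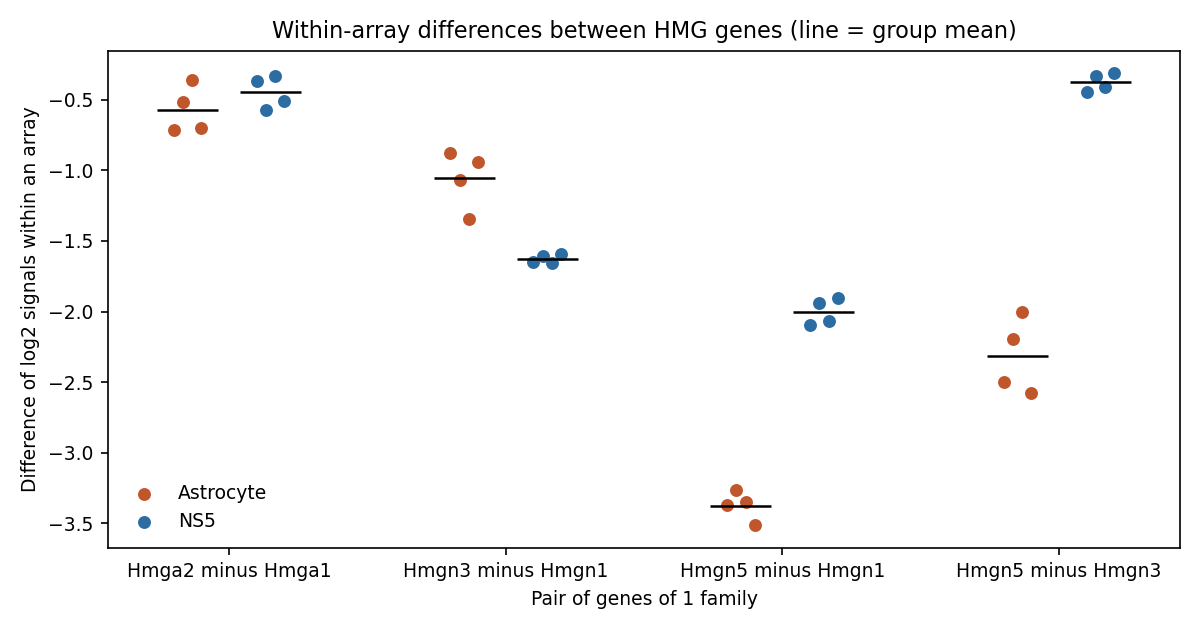
Difference of log2(signal + 99.01) between 2 genes of 1 family within each array, with 1 point per array, astrocytes left and NS5 cells right in each pair, and group means as lines. The groups are apart for the 3 HMGN pairs and overlap for Hmga2 minus Hmga1; the height of a pair depends on its probes, and the distance between its 2 groups is the comparison.

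Genes of dividing cells are given first among the related genes, because HMG genes are known to be expressed highly in dividing cells. Each of the 16 tested genes on that list was lower in astrocytes, at a median log2 fold change of -3.34, against 30.0% lower calls and a median of -0.02 over all genes. The mitotic kinase Plk1 had -5.50 ± 0.08 (SE) on 1 probe, while its other probe was not above background on any array. The helicase subunit Mcm5 had -4.29 ± 0.09, and the cyclin Ccnb1 was at least 28.1-fold lower, or at least 19.0-fold lower on its other probe. The survivin gene Birc5 had -4.30 ± 0.09, or at least 19.7-fold and at least 9.52-fold lower on its other probes. The smallest change of the 16 was that of Pcna, the sliding clamp of replication to which HMGN proteins have been linked, at -1.55 ± 0.09. Hmgn5, Hmgb1 and Hmgn1 fell between the same groups of arrays, and the part of cell division in their values was not tested.

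Linker histones, the competitors of HMG proteins on chromatin, went both ways. Of 9 on the array, 3 were tested, with 1 lower and 1 higher, beside 30.0% lower and 29.2% higher over all genes. Their median log2 fold change was -0.12, and -0.47 to -0.07 under the alternatives, the first of these in the authors' value table. H1f2, a main linker histone of body cells, had 11724 ± 766 in astrocytes and 5396 ± 252 in NS5 cells (SD, n = 4 each), which is 1.10 ± 0.08 on the log2 scale (SE, adjusted p = 5.83e-08 with limma). H1f0, the replacement linker histone of cells that have stopped dividing, was lower, with 160 ± 39.7 in astrocytes and 319 ± 10.5 in NS5 cells and a log2 change of -0.70 ± 0.10. H1 genes resemble each other in sequence, and cross-hybridization between them was not tested.

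Of 16 other HMG-box and FACT genes tested, 5 were lower and 3 higher, shares near or below the 30.0% and 29.2% of all genes. The median log2 fold change was -0.09, and its sign was not stable, with 0.03 in the authors' value table and -0.03 without astrocyte array 4. Hbp1, an HMG-box repressor that slows the cell cycle, rose most, with 3751 ± 327 in astrocytes and 1076 ± 95.4 in NS5 cells (SD, n = 4 each) and a log2 change of 1.71 ± 0.09 (SE, adjusted p = 4.40e-09 with limma), or 1.75 on a further probe. The repressor Cic rose by 0.92 ± 0.08. Tfam, which packs mitochondrial DNA with its HMG boxes, had -0.84 ± 0.08, while its other probe was not above background on any array. Supt16, a subunit of the histone chaperone FACT, had -0.83 ± 0.08, or -0.77 on its other probe.

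Of 9 tested genes on a mixed list, named for the SET complex and DNA-bending partners of HMGB, 7 fell and 2 rose. Over all genes 30.0% were called lower and 29.2% higher, and the median of the list was -0.90. The gene Set itself was not above background on any array, so the count is not one of the SET complex. Rag1, among the 7, exceeded background on 0 of the 4 astrocyte arrays and on 2 of the 4 NS5 arrays. Anp32e, a histone chaperone, had a log2 fold change of -1.66 ± 0.09 (SE), the kinase and nuclease Nme1 -1.47 ± 0.08, the peptidase Prep -1.39 ± 0.10 and the tumour suppressor Trp53 -1.11 ± 0.09. The 2 that rose were Anp32a, of the same family as Anp32e, at 0.68 ± 0.08, and Trex1, at 0.65 ± 0.10. Anp32a, Trex1, Rag1 and Set were named after their values were seen. The NF-Y subunit Nfyb, part of the factor that binds CCAAT, had 439 ± 73.2 in astrocytes and 905 ± 93.1 in NS5 cells (SD, n = 4 each), a log2 fold change of -0.90 ± 0.10, and was likewise named after its values were seen. The other NF-Y subunits were not on the list, and the part of NF-Y in the values of the HMG genes was not tested.

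Receptors and extracellular partners of Hmgb1 moved both ways, with 1 lower and 3 higher of 7 tested, where 30.0% and 29.2% of all genes were called. The median log2 fold change was 0.14, but 0.06 without astrocyte array 1 and 0.25 in the authors' value table. Cxcr4, the receptor through which HMGB1 bound to CXCL12 draws cells, had 1563 ± 350 in astrocytes and 126 ± 13.0 in NS5 cells (SD, n = 4 each), which is 2.86 ± 0.14 on the log2 scale (SE, adjusted p = 2.36e-09 with limma). Its ligand Cxcl12 exceeded background on 0 of the 4 astrocyte arrays and on all 4 NS5 arrays, at least 1.91-fold lower, by 1 probe, while its other 2 probes were above background on at most 1 array. The adaptor Myd88 was at least 1.25-fold higher, with 0 of the 4 NS5 arrays above background, and it was too dim to be tested in the authors' value table, where 2 of 6 genes were called higher. The TLR4 partner Ly96 had 0.37 ± 0.11. The receptors Ager and Tlr4, named after their values were seen, were not called, with 76.0 ± 17.2 in astrocytes and 64.6 ± 14.5 in NS5 cells for Ager and 110 ± 10.9 in astrocytes and 121 ± 13.1 in NS5 cells for Tlr4.

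In the HMGA2 and let-7 list, 3 of 8 tested genes were lower and 2 higher, beside 30.0% and 29.2% of all genes. The median log2 fold change was -0.14, but -0.08 without astrocyte array 2 and -0.56 in the authors' value table, where 4 were lower. Igf2bp2, an RNA-binding protein whose gene HMGA2 is known to switch on in mouse cells, rose to 1338 ± 65.1 in astrocytes, against 603 ± 56.6 in NS5 cells (SD, n = 4 each), which is 1.04 ± 0.08 on the log2 scale (SE, adjusted p = 1.75e-07 with limma). The inhibitor of cyclin-dependent kinases Cdkn2b had 2.08 ± 0.13, the cell cycle factor E2f1 -2.33 ± 0.11, and the cyclin Ccna2 was at least 2.44-fold lower. Lin28a, which blocks the maturation of let-7 and was likewise named after its values were seen, was not called, at -0.15 ± 0.10 with signals near background.

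Among HMGN partners and chromatin readers, 5 of 8 tested genes were lower and 2 higher, against 30.0% and 29.2% over all genes, and the median log2 fold change was -0.50. Besides Pcna, Olig2, which steers progenitors towards oligodendrocytes, was at least 2.49-fold lower, and Olig1, whose expression HMGN proteins are known to favour in mouse oligodendrocyte precursors, had -1.53 ± 0.12 (SE). Sox9, a factor of glial fate, rose by 1.14 ± 0.12. These 7 lists were drawn up with earlier results of the same data known and are descriptions.

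**Figure D4:**
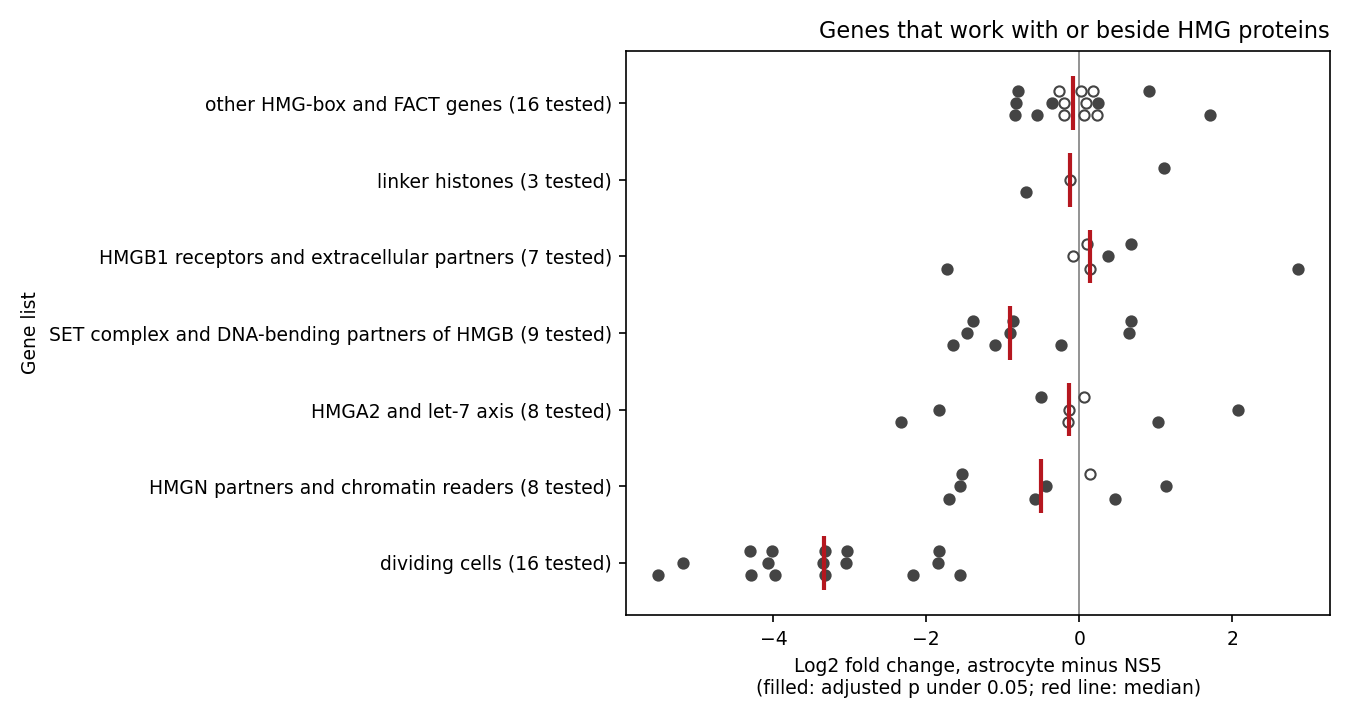
Log2 fold change, astrocyte minus NS5, of each tested gene in 7 lists of genes that work with or beside HMG proteins (filled points have an adjusted p under 0.05; red lines are list medians). The genes of dividing cells lie at or below -1.55, and every other list has genes on both sides of 0.

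Genes whose profile over the 8 arrays was most like that of a member were found by the root mean square distance between mean-centred log2 values, among 9209 named genes. Nearest to Hmgn5 were Ranbp1, a cofactor of nuclear transport (distance 0.071), Banf1, a chromatin-binding protein of the nuclear envelope (0.090), and Msmo1, an enzyme of cholesterol synthesis (0.093). Their log2 fold changes were -1.97, -1.98 and -2.03. Among those nearest to Hmgb1 were Tpmt, a methyltransferase (0.059), and Calr3, a calreticulin (0.102), with log2 fold changes of -1.39 and -1.27. For Hmga2 they were Rhebl1, Mtg2 and Slc6a11, at distances of 0.026, 0.044 and 0.048, none of them called. These profiles include the difference between the 2 groups.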

How the data were processed

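The authors deposited a table of linear probe intensities with a background already subtracted, since 29.6% to 30.7% of the values on an array are 0 or below. They also deposited a table of log2 values, which equal those intensities raised to at least 10, log2 transformed and quantile normalized, and it served as an alternative. Neither the scanner software nor the background method is given in the sources used here, nor a slide or scan date, so batches of that kind could not be examined.

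Of 24613 probes, 20984 were named by the platform annotation and 687 through their accession in RefSeq (GRCm38.p6). The 2941 probes without a name, and 1 with several symbols, each counted as a gene. Counts and shares over all genes include those of them that were kept. Intensities were raised by 99.01, which set the lowest to 16, log2 transformed and quantile normalized. The 12306 probes whose mean exceeded the median probe were kept, and the brightest probe stood for each gene, giving 10377 genes. They were fitted with limma 3.58.1 in R 4.3.3, with group as the single term, and the fit was tested on simulated data. Printed signals have the offset removed. The background limit of an array is 1.645 times the root mean square of its negative intensities. A gene not above it on any array of a group has a bound ("at least"), the bright group's mean against the higher, per array, of its own value and the lowest value above the limit. Median intensities were 28.0 to 33.0, and 46.0% to 47.9% of probes exceeded the limit. The number of arrays limits the precision.

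Members, lists and motifs were chosen with earlier results of these data known. Named genes are all members, up to 4 called genes of each list with the largest change, the 3 nearest profiles of the member that changed most in each family, and Gfap, Aqp4, Slc1a3, Nes and Sox2. Ager, Tlr4, Lin28a, Anp32a, Trex1, Rag1, Set, Nfyb and the other cell type markers fall outside that rule. Of the nearest profiles and the oligodendrocyte markers, 1 gene each is not reported here. Alternatives covered scaling, offset, filter, probe choice, variance model, weights, a replicate block and each array left out.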

Additional observations from a re-analysis of the deposited data

Results flagged for a closer look

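Of 94 sets of 4 arrays (47 probes in each group), 5 had 1 array far from the other 3, measured as the gap to the nearest array divided by the range of the set, past a value that chance passes in about 1 of 20 sets. The 5 in 94 are near that share, so they are listed as descriptions only. The second Hmgb1 probe (ILMN_1242911) had this in astrocytes (0.846), with array 1 at -12.9 and the others between -23.4 and -21.9, all below background. Astrocyte array 1 was also the one apart for Cxcl12 (0.886), at 8.60 against -31.7 to -28.0, for Cdkn2b (0.933), at 756 against 1191 to 1229, and for Plk1 (0.964), at 37.2 against 57.2 to 58.0. In NS5 cells, array 1 stood apart for Calr3 (0.918), at 1383 against 1097 to 1118. None of the tested probes of HMG genes was among them.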

How the results depend on the processing

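Of the 3 genes called lower, Hmgb1, Hmgn1 and Hmgn5 were each called under all 18 alternatives, with log2 fold changes of -1.49 to -1.26, -0.83 to -0.62 and -2.16 to -1.96. Hmga1 and Hmgn3 were called under none, with adjusted p of 0.423 to 0.974 and 0.218 to 0.854, and Hmgn3 had the opposite sign, 0.02, without astrocyte array 3. Hmga2 was called only without that array. The lowest values of Hmgb1, Hmgn1 and Hmgn3 (-0.22) came from centring arrays on their medians without quantile normalization. The number of HMG genes called was 3 throughout, or 4 without astrocyte array 3. Over all genes it was 5820 to 6200 with an array left out and 5677 to 6392 otherwise, against 6138. With each probe tested by itself, 7235 of 12306 probes were called. Of the pairs within families, 3 of 4 differed with median centring, with an offset of 16 and in the authors' value table. With an array left out or with a replicate block, the smallest exact p is 0.0571 or 0.125, so only values were compared, and no pair reversed. For the replicate block, deviations of arrays with the same number correlated at -0.05 to 0.15 and 3 of 8 arrays correlated best with their own number, so the numbers were not taken as pairs; the block gave 6074 called genes and the same 3 HMG genes. Counts in the related lists stayed within 1.5 times, but the medians of 4 lists moved further, at -0.12 to 0.03 for other HMG-box and FACT genes, -0.47 to -0.07 for linker histones, 0.06 to 0.25 for receptors and -0.56 to -0.08 for the HMGA2 and let-7 list. Dim probes limit Hmga1, Hmga2 and Hmgb3.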
